A study of Drosophila melanogaster with 4 samples.

Results

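Weak Psc sites are regions listed as enriched for Posterior sex combs (Psc) in the authors' combined list for the replicate set but in neither replicate's own list. They were chosen from the authors' 3 lists of enriched regions (clusters) as the combined clusters on the arms 2L, 2R, 3L, 3R and X or on chromosome 4 of 1.3 kb or more, the least width found in a replicate list, that shared not a single base with a cluster of either replicate list. The rule found 2307 sites. They were 2307 of the 5205 combined clusters of that width on these chromosomes (44.3%, exact 95% interval 43.0 to 45.7), and the combined list held 8687 clusters in all. Without the width minimum, 63.0% of the 8526 combined clusters on these chromosomes lay in neither replicate list. The sites covered 3.85 Mb. How the combined list was made is not given, and the calling settings may differ between the lists. The narrowest cluster was 1.0 kb wide in the combined list and 1.3 kb in each replicate list.

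Both groups of samples were whole wild-type Oregon-R embryos of the modENCODE stock, collected 14 to 16 h into development: 2 ChIP samples made with an antibody against Psc, and 2 inputs, which are chromatin fragments without immunoprecipitation. The replicate 1 list held 2628 clusters and the replicate 2 list 2432, and the labels do not say whether these came from separate embryo collections. Whole embryos mix all tissues, so Psc binding in few cells and weak binding in many cells cannot be told apart. Each cluster carries 1 enrichment score made by the authors, with no unit stated and no read numbers, so the depth and the error behind a single score are unknown, and a site missing from a replicate list has no value there.

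Psc belongs to Polycomb repressive complex 1, together with Polycomb, Polyhomeotic and Sex combs extra. The complex compacts chromatin and keeps developmental regulators silent where they are not needed. In the fly it is recruited at short Polycomb response elements, and in late embryos its best known targets are the Hox genes, over which Polycomb chromatin spreads across long stretches. Calls of Psc regions can range from narrow isolated sites to wide domains. No gene is named for any site, because the gene table used here is of genome release 6 and the lists are of release 5.

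The weak sites were narrow. Their median width was 1563 bp (interquartile range 1410.5 to 1778.5), against 1850 bp (1638 to 2096) in the 1731 combined clusters of at least 1.3 kb that met 1 replicate list, and 3167 bp (2233.5 to 5408) in the 1167 that met both. Width is part of the rule, so these values are a description. Most combined clusters narrower than 1.5 kb within the rule were weak sites, 927 of 1147 (80.8%, 78.4 to 83.1). The share was 50.6% (48.5 to 52.7) from 1.5 to 2 kb, 21.1% (18.7 to 23.8) from 2 to 3 kb and 4.77% (3.40 to 6.49) from 3 kb upwards, where 38 weak sites remained among 797 clusters. Among these widest clusters 79.0% met both lists. In the first 50 bp above the width minimum, 284 of 327 combined clusters (86.9%) were in neither list, with a median score of 0.34. In the 50 bp below it, 315 of 383 (82.2%) were, also with a median of 0.34.

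**Figure D1:**
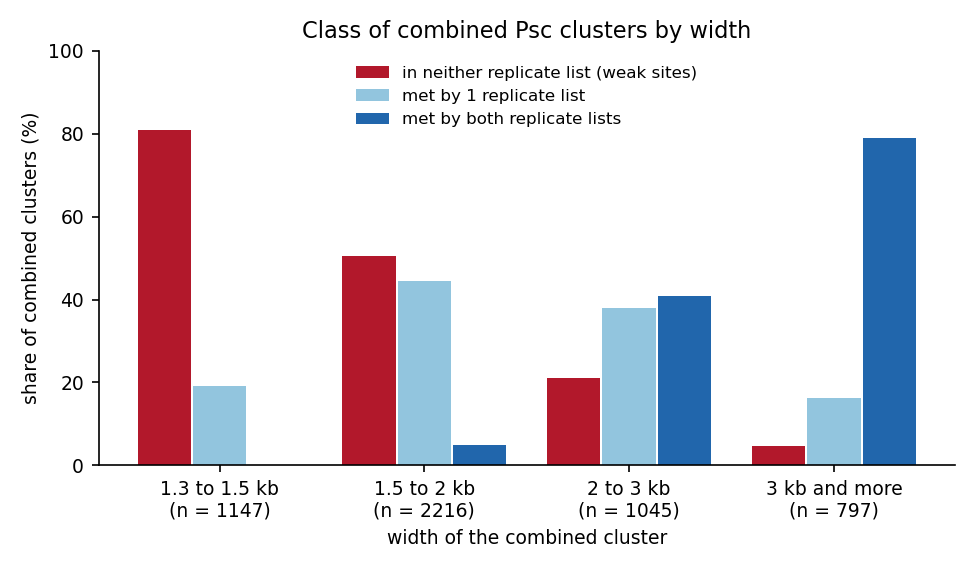
Share of combined Psc clusters (%, vertical axis) in each class, by width of the combined cluster; red bars are weak sites, light blue bars clusters that met 1 replicate list and dark blue bars clusters that met both, with the number of clusters under each band. Weak sites make up 80.8% of the narrowest band and 4.77% of the widest.

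The name "weak" held against the clusters found in both replicates, while clusters found in 1 replicate scored nearly as low and narrower clusters in neither list scored higher. Within the combined list, the weak sites had a median score of 0.34 (interquartile range 0.30 to 0.38, lowest 0.13, highest 0.70). Clusters that met 1 list had a median of 0.35 (0.31 to 0.40), and clusters that met both had 0.51 (0.41 to 0.76). Only 1.3% of the weak sites scored above the median of the clusters met by both lists, and so did 2.14% of those met by 1 list. The 3068 clusters narrower than 1.3 kb in neither list had a median of 0.38 (0.35 to 0.42). The scores come from the same contrast that chose the sites, so no test was made.

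Scores of weak sites and of clusters found in 1 replicate were close in the narrow clusters and less so in the wide ones. Below 1.5 kb the medians were 0.335 for weak sites and 0.337 for clusters that met 1 list. From 1.5 to 2 kb they were 0.335 for weak sites and 0.332 for the others, from 2 to 3 kb 0.373 and 0.393, and from 3 kb upwards 0.344 and 0.376. Clusters that met both lists had medians of 0.350 from 1.5 to 2 kb (109 clusters), 0.463 from 2 to 3 kb and 0.642 from 3 kb upwards. Below 1.5 kb only 1 cluster met both lists. The combined clusters of at least 1.3 kb were ranked by score and divided into 5 classes of nearly equal size, separately on the autosomes and on the X. Weak sites occurred in every class. On the autosomes weak sites made up 59.6%, 58.4%, 52.5%, 39.7% and 11.3% of the clusters, from the class of lowest scores to the highest. Clusters that met 1 list made up 37.6%, 37.1%, 38.9%, 39.6% and 13.0% of the same classes. On the X, weak sites made up 65.7%, 55.9%, 51.7%, 36.2% and 12.4% of its own classes, the highest of which began at a score of 0.504. The 94 autosomal weak sites of the highest class scored 0.423 or more, and 629 clusters of that class (75.7%) met both lists.

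Weak sites on the X scored higher than weak sites on the autosomes, as did every other class compared. The median was 0.39 (interquartile range 0.34 to 0.43) for the 466 sites on the X and 0.33 (0.29 to 0.37) for the 1841 on the autosomes, a difference of 0.06. The same difference was 0.07 in clusters that met 1 list, 0.09 in clusters that met both and 0.07 in the narrow clusters in neither list. The autosomal arms had medians of 0.33 each, and chromosome 4, with 8 sites, had 0.32. Why X scores were higher was not tested, so a ranking over all chromosomes favours the X.

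**Figure D2:**
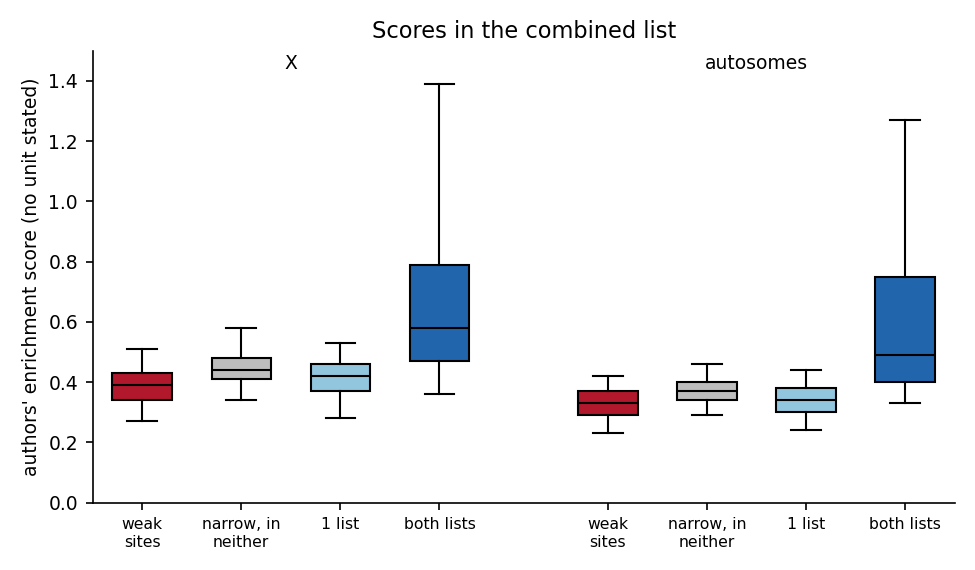
Authors' enrichment score (no unit stated, vertical axis) of 4 classes of combined clusters on the X (left) and on the autosomes (right); boxes span the interquartile range with the median as a line, and whiskers run from the 5th to the 95th percentile. Weak sites and clusters met by 1 list overlap over most of their range, at medians of 0.39 and 0.42 on the X and 0.33 and 0.34 on the autosomes, while clusters met by both lists reach far higher.

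Of the 10 weak sites with the highest scores, 6 lay on the X, 2 on 3L and 1 each on 2L and 2R. The first was X 21800298 to 21802111, near the centromeric end of the assembled X, with a score of 0.70. Its nearest replicate 1 cluster was 274 kb away and its nearest replicate 2 cluster 54.6 kb, while a narrow combined cluster with a score of 1.56, also in neither replicate list, lay 1.09 kb away. X 9044394 to 9045827 scored 0.70 as well. It lay 3.81 kb from a replicate 2 cluster and 92.1 kb from any replicate 1 cluster. On 2L, the site 3161674 to 3163684 scored 0.67, above 99.7% of the weak sites of its arm, and stood alone: the next combined cluster of any kind, another weak site, was 28.4 kb away. X 1541516 to 1543383, with 0.64, lay 34.6 kb from the nearest replicate cluster and 3.19 kb from another weak site.

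The other 6 scored from 0.55 to 0.60. They were 3L 24330990 to 24332393 (0.60), 3L 22570338 to 22571655 (0.59), X 18688866 to 18690409 (0.57), 2R 9300607 to 9301959 (0.57), X 6007568 to 6008977 (0.56) and X 16459780 to 16462105 (0.55). Even the highest weak site ranked only 377th by score among the combined clusters of the arms and chromosome 4. Of the 10, only the last had a cluster found in both replicates as its nearest combined neighbour, 5.09 kb away.

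The widest weak sites had ordinary scores and lay next to replicate clusters. The widest of them spanned 5665 bp (3L 4076084 to 4081748, score 0.33), with a replicate 2 cluster 1.07 kb away and a replicate 1 cluster 3.69 kb away. It was followed by 3R 19100133 to 19105526 (5394 bp, 0.31), 3R 26764041 to 26768996 (4956 bp, 0.32), 3L 6734643 to 6738772 (4130 bp, 0.32) and 2L 8885207 to 8889260 (4054 bp, 0.36). Their nearest replicate clusters lay 1.07 to 4.08 kb away. The 3R site of 4956 bp sat 1.19 kb from a combined cluster found in both replicates, which scored 0.98.

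Weak sites were spread over all major arms. They numbered 20.9 per Mb on 2R, 20.8 on X, 20.0 on 3R, 18.3 on 3L and 16.6 on 2L, and 5.92 per Mb on chromosome 4. The share of combined clusters of at least 1.3 kb that were weak sites was close to the same on each major arm. It was highest on 3L (450 of 945, 47.6%, 44.4 to 50.9) and lowest on 3R (558 of 1299, 43.0%, 40.2 to 45.7), with 44.8% on 2R, 44.4% on X and 43.3% on 2L between them. The intervals of these arms overlapped. On chromosome 4, a small and largely heterochromatic chromosome, 8 of 41 were weak sites (19.5%, 8.82 to 34.9), 14 met 1 list and 19 (46.3%) met both. These intervals cover counting error only, and clusters lie in groups, so neighbouring ones are not independent.

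Pooled over the major arms, weak sites were densest at the tips, which held for X, 2R and 3L and not for 2L and 3R. Each major arm was divided into 10 segments of equal length, from segment 1 at the tip to segment 10 next to the centromere. Over the 5 arms together, segment 1 held 28.4 weak sites per Mb. Segments 2 and 3 held 21.8 and 21.9, segment 7 held 14.4, segment 9 held 22.3 and segment 10 held 13.4. Clusters met by 1 list had 19.9 per Mb at the tip, 13.4 in segment 7 and 10.4 in segment 10. Clusters met by both lists had 12.2, 6.30 and 8.07 in the same segments, and 12.3 in segment 6. The share of weak sites among clusters of at least 1.3 kb varied less than their density, from 38.9% (34.6 to 43.3) in segment 6 to 48.4% (44.1 to 52.7) in segment 3. At the tip this share was 46.9% (43.2 to 50.7), so the high density there was not particular to weak sites. The tip of X held 37.9 weak sites per Mb, that of 2R 30.7 and that of 3L 29.3, the highest of their arms. On 2L segment 3 held 27.8 and the tip 24.8, and on 3R segment 8 held 26.2 and the tip 21.1. Next to the centromere 3R still had 22.9 against 6.62 on 2R and 7.39 on 2L. Their median score was 0.33 to 0.35 in every segment.

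**Figure D3:**
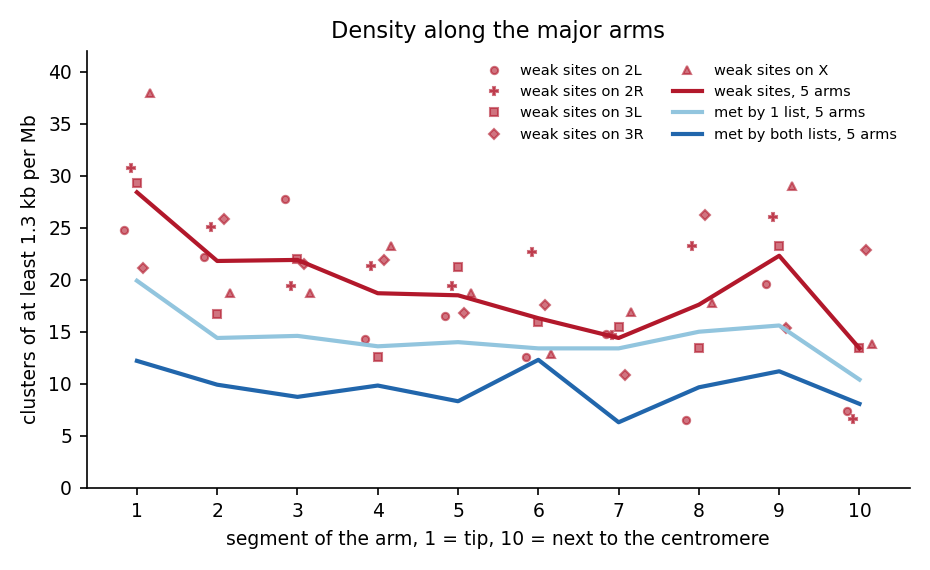
Clusters of at least 1.3 kb per Mb (vertical axis) in each of 10 equal segments of the 5 major arms, from the tip (1) to the end next to the centromere (10); lines pool the 5 arms for weak sites (red) and for clusters met by 1 (light blue) or both (dark blue) replicate lists, and red symbols show weak sites on each arm. Pooled over the arms, the density of weak sites is highest at the tip, 28.4 per Mb, and lowest next to the centromere, at 13.4 per Mb.

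Every full 1 Mb window of the major arms held weak sites. Over these 117 windows the number ranged from 3 to 53, with a median of 19 (interquartile range 14 to 24). The fullest window was X 1 to 2 Mb, with 53 weak sites among 97 clusters of at least 1.3 kb, 34 that met 1 list and 10 that met both. Its weak sites had a median score of 0.40, close to the X median. The next window, X 2 to 3 Mb, had 37 weak sites among 59 clusters (62.7%). It was followed by 2R 18 to 19 Mb and 2R 20 to 21 Mb with 36 each and by 3L 0 to 1 Mb with 35. In these last windows weak sites were 48.0%, 42.4% and 47.9% of the clusters of at least 1.3 kb. Over the arms and chromosome 4 the share was 44.3%, so these windows stood out in number and hardly in share. Windows rich in weak sites also tended to hold more clusters found in a replicate. Across the 117 windows, Spearman's rho was 0.61 between weak sites and clusters met by 1 list and 0.48 between weak sites and clusters met by both, beside 0.59 between the other two classes. All 3 classes come from the same 2 ChIP samples, and the windows are not replicates.

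At the ends of the arms, weak sites began close to the limit of the assembly on some arms only. The outermost site at the tip lay 11.2 kb from the end on 2R (21133884 to 21135501, score 0.33) and 42.3 kb on 2L (42316 to 44311, 0.34). It lay 122 kb from the end on 3L (121984 to 123332, 0.35), 137 kb on 3R (27766704 to 27768172, 0.33) and 168 kb on X (167540 to 168922, 0.31). At the centromeric end, 3R had a weak site that starts at base 1 and runs to 1671 (0.36), so the assembly cuts it off and its true width is unknown. The innermost sites lay 169 kb from that end on 3L (24372384 to 24374669, 0.35), 185 kb on 2R (184551 to 186805, 0.37), 289 kb on X (22132094 to 22133465, 0.42) and 606 kb on 2L (22404179 to 22405590, 0.41).

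The spacing of weak sites resembled that of clusters met by 1 list more than that of clusters met by both. The median gap to the next weak site on a major arm was 27.6 kb (interquartile range 9.85 to 63.9), against 34.8 kb (12.2 to 85.4) between clusters met by 1 list and 20.2 kb (3.19 to 102) between clusters met by both. Arm length divided by number gives 51.8 kb per weak site, 69.3 kb per cluster met by 1 list and 104 kb per cluster met by both. The median gap was thus closest to the mean spacing for weak sites and farthest from it for the clusters found in both replicates. Gaps of at most 1 kb made up 4.53% of those between weak sites (104 of 2294), 3.74% between clusters met by 1 list and 14.7% between clusters met by both. The longest stretch without a weak site was 792 kb on 2R (972437 to 1764383) and 685 kb on 3L (23607246 to 24292672), both in the centromeric part of the arm.

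Weak sites lay nearer to replicate clusters than the sequence between those clusters does on the whole. By the nearer edge, 1227 of 2307 (53.2%, 51.1 to 55.2) were within 10 kb of a replicate cluster, with a median distance of 8.74 kb (interquartile range 2.59 to 22.7). By midpoint, 51.2% were within 10 kb, against 34.5% of the arm bases that lie outside replicate clusters. The order was the same on each chromosome: 51.7% against 30.4% on 2L, 52.3% against 37.8% on 2R, 44.7% against 31.2% on 3L, 52.5% against 38.4% on 3R and 54.3% against 35.5% on X. On chromosome 4 it was 6 of 8 sites against 17.9% of the bases. It also held for each list alone, at 41.2% against 25.9% for replicate 1 and 37.9% against 24.2% for replicate 2. The bases include sequence where reads may not map, and whether mappable bases alone would give another share was not tested.

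Measured to each list by the nearer edge, 43.1% of weak sites had a replicate 1 cluster within 10 kb and 39.7% a replicate 2 cluster. Of the clusters that met 1 list, 46.0% had a cluster of the other list that near. Weak sites lay farther than clusters met by 1 list from the combined clusters found in both replicates. The median distance to such a cluster was 34.7 kb (8.84 to 98.8) for weak sites and 24.4 kb (4.99 to 82.1) for clusters met by 1 list. The clusters met by both lay 6.41 kb (1.01 to 34.1) from the next of their own kind.

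**Figure D4:**
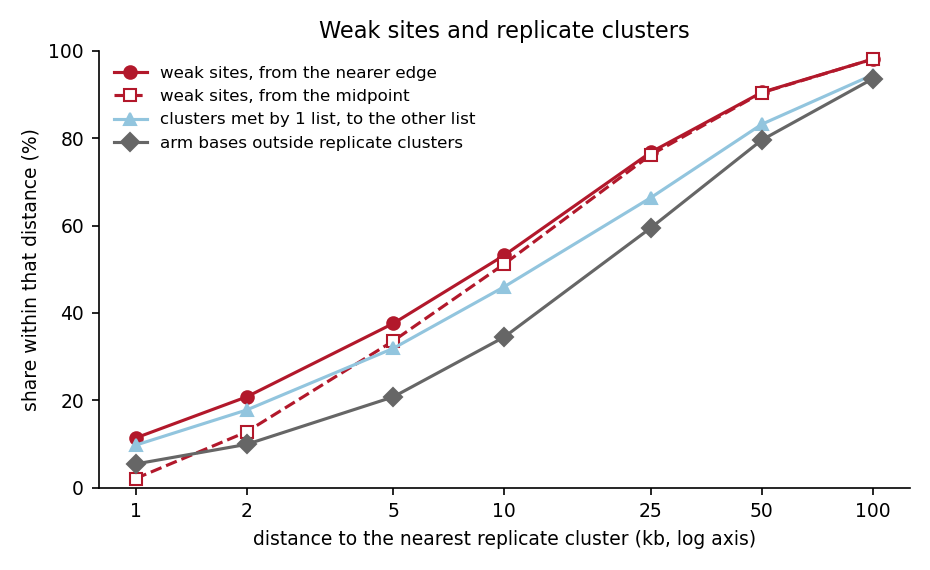
Share (%, vertical axis) of weak sites (red), of clusters met by 1 list (light blue, measured to the other list) and of arm bases outside replicate clusters (grey) that lie within a given distance of a replicate cluster (kb, log axis); squares measure weak sites from their midpoint, which compares with single bases. Within 10 kb lie 51.2% of weak sites by midpoint and 34.5% of the bases; below 2 kb the midpoint share is held down by the width of the sites.

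The replicate clusters near weak sites had scores typical of their lists. Among weak sites with a replicate 1 cluster within 10 kb, the nearest was shared with replicate 2 in 48.6% of cases, against 51.7% of all replicate 1 clusters, and its score lay at the 50.2nd percentile of its list at the median. For replicate 2 the values were 55.7% against 59.1%, and the 48.3rd percentile. The nearest cluster belonged to the highest quartile of scores in 24.9% of cases in replicate 1 and 23.8% in replicate 2.

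The clusters next to weak sites in the combined list had nearly the same makeup as the list itself. Of the 4612 left and right neighbours, 27.8% were other weak sites, against 27.1% of the list. Narrow clusters in neither list made up 36.1% of the neighbours and 36.0% of the list. Clusters met by 1 list made up 24.0% and 23.3%. Clusters met by both made up 12.1% of the neighbours and 13.7% of the list. The nearest combined cluster of any kind lay 2.60 kb away at the median (0.77 to 6.93).

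**Figure D5:**
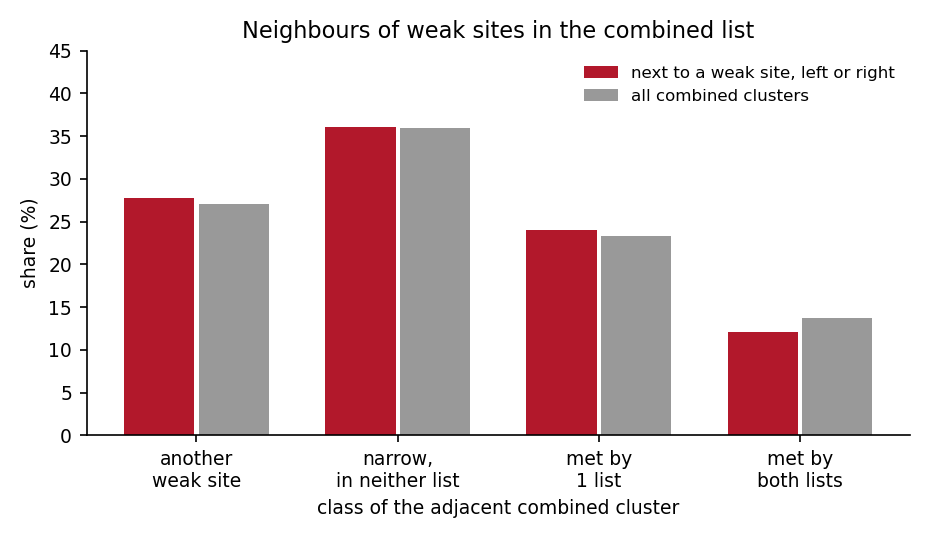
Share (%, vertical axis) of each class among the clusters directly left and right of weak sites (red) and among all combined clusters of the arms and chromosome 4 (grey). The bars differ by less than 2 points in each class, with 27.8% and 27.1% for weak sites themselves.

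Weak sites were then placed in domains, made by joining combined clusters within 10 kb of each other. In all, 1412 weak sites (61.2%, 59.2 to 63.2) fell in a domain with at least 1 cluster found in a replicate. The share depends on the joining gap, with 43.6% at 5 kb and 87.0% at 25 kb. No such share is given for the narrow clusters in neither list, so it cannot be called particular to weak sites. Of the 1412 sites, 903 (39.1%) shared their domain with a cluster found in both replicates and 509 (22.1%) only with clusters found in 1. A further 510 (22.1%) lay in domains of several clusters all in neither list, and 385 (16.7%, 15.2 to 18.3) had no combined cluster of any kind within 10 kb. Scores hardly differed between these settings, at medians of 0.34, 0.34, 0.33 and 0.34. Widths were 1621 bp at the median in domains with a cluster found in both replicates and 1544 bp in sites that stood alone. Flanks were judged by the directly adjacent combined cluster alone. It was found in a replicate and lay within 10 kb on both sides of 198 weak sites (8.58%). This held on 1 side for 761 (33.0%) and on neither side for 1348 (58.4%). Flanks of the other classes are not given, so these shares cannot be called particular to weak sites either.

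Scores varied little with distance from replicate clusters on the autosomes, and on the X the farthest sites scored lower. Over all chromosomes the median was 0.336 for the 263 weak sites within 1 kb of one, 0.342 for the 964 from 1 to 10 kb, 0.339 for the 860 from 10 to 50 kb and 0.335 for the 220 farther away. On the autosomes it was 0.33 in each of these 4 classes. On the X it was 0.38 for 52 sites, 0.39 for 210 and 0.40 for 155 up to 50 kb, and 0.34 for the 49 farther away. Across the 2307 sites, Spearman's rho between score and distance was -0.01, and it was -0.08 on the X and 0.02 on the autosomes. Between score and width it was 0.14, and between width and distance -0.10. These points come from 1 list and share its libraries.

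The 10 longest domains held 87 weak sites. Except in the 188 kb domain on 3L, they made up a smaller share of each domain's clusters than of the list (27.1%). The longest, 405 kb on 3R (2467922 to 2873204), held 14 weak sites among its 80 combined clusters, the most of any domain, beside 52 clusters found in a replicate. In the 334 kb domain on 3R (12483932 to 12817919) only 3 of 27 clusters were weak sites and 17 were found in both replicates. The 188 kb domain on 3L (6769838 to 6958280) had 13 weak sites among 45 clusters and 6 found in both.

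The weak sites farthest from any replicate cluster lay in the centromeric part of 3L. There, 3L 23470609 to 23471980 (score 0.38) was 528 kb from the nearest replicate cluster, 23422486 to 23424163 (0.35) was 480 kb, 23605557 to 23607246 (0.34) was 434 kb and 23293244 to 23294623 (0.42) was 351 kb. Next in order was 2L 15853457 to 15855440 (0.37), at 191 kb. Each of these 5 had a narrow combined cluster in neither list as its nearest neighbour. The way they were chosen left only clusters in neither list as neighbours so near, and 3068 of those 5375 clusters were narrow.

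Runs of successive combined clusters that all missed both replicate lists, narrow ones included, were mostly short. There were 1828 runs with a median of 2 clusters, and 673 held a single cluster. For comparison, 5375 of the 8526 combined clusters (63.0%) were in neither list, and 2307 of these were weak sites. The 49 runs of 10 or more clusters contained 226 weak sites (9.80%). No such share is given for the narrow clusters in neither list, so it cannot be called particular to weak sites. The longest had 23 clusters over 302 kb on 3R (22156292 to 22458740), of which 8 were weak sites, with scores of 0.26 to 0.46. Next were 21 clusters over 283 kb on X (838263 to 1120768, 4 weak sites). This run reaches into the fullest 1 Mb window but ends before the first weak site there, at 1130313. Then came 3 runs of 19 clusters, on 2L (18464904 to 18690429, 5 weak sites), 2R (6459506 to 6879787, 4) and 2R (14672757 to 14894340, 8). None of these longest runs held a larger share of weak sites than the 2307 among all 5375 clusters in neither list.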

How the data were processed

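ChIP-seq for Psc was carried out on 2 ChIP samples and 2 inputs. The deposited data used were 3 region lists, 1 per ChIP sample and 1 for the replicate set. Each region has a score made by the authors, with no unit in the file headers. Bowtie 0.12.7 is named in the submitters' processing notes. The genome is FlyBase release 5, per the file headers, and coordinates are 1-based as deposited. How regions were called, at which threshold, and how the replicate set was made is not given in the sources used here. Scores were used only within the combined list, except for percentiles within each replicate list.

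Overlap meant at least 1 bp, distances run edge to edge, and domains join clusters within 10 kb. Intervals on shares are exact (Clopper-Pearson, 95%) and cover counting error alone. Since the lists themselves chose the sites, no test was made and every comparison is a description. Counting used pandas 2.3.3, numpy 2.4.6 and scipy 1.17.1 under Python 3.11.15, and was tested on simulated data; figures used matplotlib 3.10.9, and bedtools 2.31.1 gave the same 2307 sites. Named are the 10 sites of highest score, the 5 widest, the 5 farthest from a replicate cluster, the outermost on each arm, the 5 longest runs and the 5 fullest 1 Mb windows. The sites and the lists they are set against were chosen with earlier results of these data known. Alternatives varied overlap, width, distance, gap, score, chromosomes and the replicate lists used.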

Additional observations from a re-analysis of the deposited data

Results flagged for a closer look

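The heterochromatic and unplaced sequences held 44 combined clusters of at least 1.3 kb, of which 27 were in neither replicate list. On the arms and chromosome 4, 44.3% were in neither list. The comparisons left out these 27 clusters, 13 of which lay on the unplaced sequence U. Their scores ran from 0.28 to 2.78 with a median of 0.45, and 9 of them scored above the highest weak site of the arms.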

How the results depend on the processing

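Of 28 alternatives to 7 results, 9 stayed the same and 19 moved. The count of weak sites was called the same within 1.5 times its value. The gap between 3L and 3R was called the same if its change was within the combined error of the arms' 95% intervals. All other results were judged by their own 95% interval, and their alternatives all moved. Only the gap between 3L and 3R has a direction that could turn, and it turned in 0 of its 4 alternatives. The number of weak sites was 2307, and 5375 without the width minimum (all clusters, from 1.0 kb), 259 from 2000 bp, 669 among the clusters above the median score of the list, and 3068 to 3277 when only 1 replicate list had to be missed. The gap between 3L and 3R in the share of weak sites, 4.66 points, was 2.44 to 5.43 points under its 4 alternatives. 3L was the highest arm in each, while the lowest was 2L (37.8%) when no replicate cluster could lie within 1000 bp and X (61.9%) without the width minimum. The share within 10 kb of a replicate cluster, 53.2%, was 37.6% at 5 kb, 76.8% at 25 kb, 68.7% for sites of at least 2000 bp, and 41.7% to 43.7% with 1 replicate list left out. The share in domains with a cluster found in a replicate, 61.2%, was 43.6% at a gap of 5 kb, 87.0% at 25 kb, and 53.9% to 55.0% with 1 list left out. Without the width minimum the median spacing was 12.1 kb, against 27.6 kb, and the median score 0.37, against 0.34. It was 0.37 from 2000 bp, 0.33 on the autosomes and 0.39 on the X. The median width was 1633 to 1635 bp with 1 list left out. Wider distances and fewer lists move these shares by construction. No paired analysis was possible because only the ChIP samples have lists. Unknown read numbers limit all scores.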

Other observations

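Narrow combined clusters in neither replicate list included some of high score, which were chosen after their values were seen. Of the 3068 on the arms and chromosome 4, 49 scored above the highest weak site, from 0.72 to 3.24 with a median of 1.41, and their median width was 1029 bp. Of the 48 on the major arms, 22 (45.8%) lay in segment 10 of the arm, next to the centromere. The same segment held 6.92% of the weak sites and 7.61% of all narrow clusters in neither list. The highest, 2L 22799575 to 22800575 and 2R 18850399 to 18851399, scored 3.24 and 3.10 and were each of the least width in the list.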
